A study of Mus musculus with 12 samples.

Results

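Lrg1, a secreted leucine-rich glycoprotein, is known to modulate TGF-beta signalling through TGF-beta receptors and the co-receptor endoglin. The genes described here are 10 parts of that pathway in fat cell lines. They are the ligands Tgfb1, Tgfb2 and Tgfb3, the activin subunit gene Inhba, the receptors Tgfbr1, Tgfbr2 and Acvrl1, the co-receptors Tgfbr3 (betaglycan) and Eng (endoglin), and the intracellular inhibitor Smad7. They were chosen by symbol from the 18194 genes that the platform annotation names through probe sets with 1 symbol. No rule on measured values was used, but earlier results of these data were known. All 10 were bright enough to be tested.

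Total RNA of mouse cells was hybridised to 12 Affymetrix arrays, with 3 arrays in each of 4 groups. Brown adipocytes were cells of a brown line harvested on day 8, after induction at day 0 (2 days after confluence) for 3 days with 0.5 mM IBMX, 1 µM dexamethasone, 125 µM indomethacin, 20 nM insulin and 1 nM T3, with insulin and T3 kept on afterwards. Brown preadipocytes were the same line at day 0, before induction. White adipocytes were 3T3-L1 cells, an established fibroblast line that forms fat cells in culture, harvested on day 10 after 3 days with 0.5 mM IBMX, 1 µM dexamethasone and 1 µg/mL insulin. White preadipocytes were 3T3-L1 cells at day 0, before induction. The brown line grew in medium with FBS and the 3T3-L1 cells in medium with fetal calf serum. These names alone do not show that the serum differed. The cell line cannot be told apart from any difference in serum, and among adipocytes also not from its induction mix and day of harvest. No label says that the 3 arrays of a group came from separate cultures, so p-values measure only the spread between these samples. The origin of the brown line is not given in the sources used here.

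TGF-beta ligands are secreted in a latent complex, and once released they bind the type II receptor Tgfbr2, which recruits and phosphorylates the type I receptor Tgfbr1. The activated receptor phosphorylates Smad2 and Smad3, which enter the nucleus with Smad4. In endothelial cells the type I receptor Acvrl1 (ALK1) and endoglin send the signal through Smad1 and Smad5 instead, the branch that Lrg1 is best known for. TGF-beta is a classical inhibitor of fat cell differentiation in culture, and Smad7, itself induced by the pathway, blocks the type I receptors.

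Signals are linear array intensities on a scale where each array's trimmed mean had been set to 500, and changes are differences of log2(signal + 16), which are smaller than log2 ratios of signal for dim genes. A gene was tested if it lay above the 40th percentile of its array, a signal between 32.9 and 41.2, on at least 3 arrays, and this held for 13746 genes. A gene was called higher or lower if its limma adjusted p, over all tested genes, was under 0.05. Arrays of 1 group correlated at 0.978 to 0.982, and arrays of different groups at 0.885 to 0.935. The adipocyte markers Adipoq, Fabp4 and 6 others summed to 90275 to 93610 in brown adipocytes, against 48130 to 56883 in brown preadipocytes, and to 109598 to 123323 in white adipocytes, against 8563 to 9389 in white preadipocytes. In each line 7 of these 8 were called higher. Adipoq did not pass in brown differentiation (0.50, adjusted p = 0.0850), and Lep did not in white differentiation (0.55, adjusted p = 0.0532). Adipoq alone stood at 18695 ± 2319 in brown preadipocytes and 31.9 ± 16.4 in white preadipocytes (SD, n = 3 each), so the brown line carried adipocyte RNA before induction. The 6 brown fat markers summed to 12717 to 14340 in brown adipocytes, against 1059 to 1154 in brown preadipocytes, and to 4720 to 6008 in white adipocytes, against 97.7 to 149 in white preadipocytes. Cox8b made up most of the white adipocyte sum, at 5065 ± 649 (SD, n = 3), and Ucp1, Dio2 and Prdm16 did not pass in white differentiation. Cox8b (7.97), Ppargc1a (2.46) and Cidea (1.39, adjusted p = 0.00969) were called higher there. Dio2 did not pass in brown differentiation either (0.08, adjusted p = 0.834). The 5 preadipocyte markers, Dlk1 among them, summed to 606 to 679 in brown adipocytes, against 12261 to 12904 in brown preadipocytes, and to 8613 to 9494 in white adipocytes, against 19504 to 21778 in white preadipocytes. All 5 were called lower in brown differentiation. In white differentiation Dlk1, Pdgfrb and Thy1 were called lower. Pdgfra (0.19, adjusted p = 0.114) and Cd34 (0.26, adjusted p = 0.439) did not pass there. Ucp1, the uncoupling protein that defines brown fat, reached 382 ± 74.5 in brown adipocytes (SD, n = 3) and lay below the 40th percentile on all arrays of the other 3 groups. The endothelial markers Pecam1 and Tie1 lay below it on all 12 arrays, and the sums of the 8 endothelial markers overlapped between all groups, at 153 to 266 in brown adipocytes, 124 to 287 in brown preadipocytes, 183 to 215 in white adipocytes and 96.5 to 242 in white preadipocytes. Of the 8, Cldn5 and Esam were bright enough to test. Esam rose in white differentiation (0.56, adjusted p = 0.0437) and did not pass in brown differentiation (0.27, adjusted p = 0.301). Cldn5 did not pass in either line. The sums of 7 macrophage markers were 391 to 427 in brown adipocytes, 459 to 572 in brown preadipocytes, 918 to 1034 in white adipocytes and 1460 to 1639 in white preadipocytes, with Ptprc and Aif1 too dim to test. The difference in these sums came mainly from Lyz2 and Cd14, at 870 ± 95.8 and 452 ± 21.6 in white preadipocytes (SD, n = 3), while Cd68 rose in white differentiation by 1.01 (adjusted p = 0.00813) and Adgre1 and Csf1r did not pass in either line. The 3' to 5' signal ratio of actin, a measure of RNA integrity, was 2.39 to 2.48 in brown adipocytes against 1.43 to 1.56 in brown preadipocytes, and 2.08 to 2.35 in white adipocytes against 1.36 to 1.46 in white preadipocytes. The same ratio of Gapdh was 0.798 to 0.835 in brown adipocytes against 0.750 to 0.808 in brown preadipocytes. It was 0.820 to 0.833 in white adipocytes against 0.834 to 0.899 in white preadipocytes. The actin ratio therefore rose with differentiation in both lines. The Gapdh ratio overlapped between the brown groups and was slightly lower in white adipocytes than in white preadipocytes. The part of either in the changes below was not tested. Scaling to 18 hybridization-control probe sets in place of the trimmed mean moved the median change of all genes to -0.23 in white and -0.22 in brown differentiation, and small changes are read with that shift in mind. These are bulk samples, in which fewer cells of a type and less RNA per cell cannot be told apart.

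Promoters are shown for 3 of the genes with the strongest losses, Tgfb2 and Eng, which fell in the brown line, and Inhba, which fell in 3T3-L1 cells. Each sequence is the 250 bases before the start that the RefSeq promoter table gives for the gene in the GRCm38.p6 assembly, 5′ to 3′ on the gene's strand. For Tgfb2 and Inhba that start lies inside the gene's full annotated span, so transcripts that start farther upstream are not covered. Capitals mark 3 motifs, searched on both strands with no overlap between them. The core of the promoter element that places the start is TATAAA. The site bound by many helix-loop-helix factors, the E-box, was searched as CACGTG. The short motif bound by Smad proteins is CAGAC, which reads GTCTG where it lies on the opposite strand.
Tgfb2, chr1:186705990-186706239, minus strand: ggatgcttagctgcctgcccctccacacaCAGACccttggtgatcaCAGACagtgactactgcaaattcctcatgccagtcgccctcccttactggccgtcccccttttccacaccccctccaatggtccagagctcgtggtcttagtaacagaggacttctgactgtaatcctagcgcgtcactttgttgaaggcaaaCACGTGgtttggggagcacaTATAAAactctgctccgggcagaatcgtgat
Eng, chr2:32646345-32646594, plus strand: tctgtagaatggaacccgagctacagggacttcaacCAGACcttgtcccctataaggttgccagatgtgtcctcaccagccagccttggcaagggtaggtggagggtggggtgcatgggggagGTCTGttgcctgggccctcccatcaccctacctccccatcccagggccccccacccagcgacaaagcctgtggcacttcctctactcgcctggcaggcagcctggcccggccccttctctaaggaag
Inhba, chr13:16011601-16011850, plus strand: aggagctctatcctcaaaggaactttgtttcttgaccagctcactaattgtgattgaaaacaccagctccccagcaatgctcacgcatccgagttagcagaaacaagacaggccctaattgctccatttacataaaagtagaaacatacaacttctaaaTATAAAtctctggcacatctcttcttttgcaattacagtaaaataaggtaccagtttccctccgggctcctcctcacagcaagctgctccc
The Tgfb2 promoter held the TATAAA motif 31 bases and an E-box 51 bases before the start, and CAGAC at 221 and 204 bases. Eng held CAGAC at 214 and 127 bases and none of the other motifs, and Inhba held TATAAA at 91 bases. Among 32851 RefSeq promoters of this length, the TATAAA motif occurred in 12.4%, the E-box CACGTG in 6.02% and the Smad motif CAGAC in 42.2%, so a CAGAC match is common. These matches describe the letters in the window only. Of the 10 genes and Lrg1, 7 had a promoter entry that could be searched.

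Differentiation changed different parts of the set in the 2 lines. In brown adipocytes Tgfb2, Tgfb3 and Eng fell steeply, Tgfb1 and Tgfbr2 rose, and Tgfbr1 and Tgfbr3 changed little but passed the test. In white adipocytes Tgfbr1 rose, and Inhba, Smad7 and Tgfbr2 fell. Brown differentiation called 3 of the 10 higher and 4 lower, with 3 not passing, against 58.6% of all tested genes called (27.2% higher and 31.5% lower). White differentiation called 1 higher and 3 lower, with 6 not passing, against 61.2% of all tested genes called (30% higher and 31.2% lower). The counts are thus of the size that these arrays gave for genes in general, and the median change over the 10 genes was -0.30 in the brown line and -0.19 in the white line, beside -0.03 and 0.02 over all genes. Tgfbr1 was the gene called in the same direction in both lines, Tgfbr2 was called in opposite directions, 5 genes were called in the brown line alone, Inhba and Smad7 in the white line alone, and Acvrl1 in neither. With the mean of a gene's probe sets in place of its brightest, 4 of the 10 were called in brown and 6 in white differentiation. Of all 13125 genes tested in that way, 7348 were called in brown and 7708 in white differentiation.

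**Figure D1:**
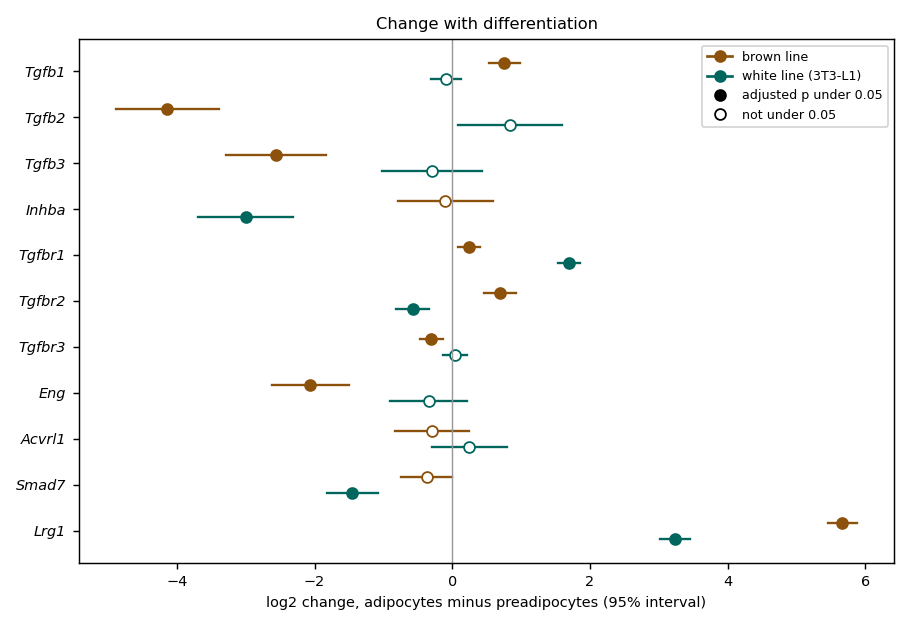
Log2 change from preadipocytes to adipocytes (horizontal axis, 95% interval) of the 10 genes and Lrg1 in the brown line and the white line, 3 arrays a group; filled points have an adjusted p under 0.05. Tgfb2, Tgfb3 and Eng lie far to the left in the brown line (-4.14, -2.56 and -2.06), Inhba and Smad7 in the white line, and Lrg1 far to the right in both.

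Lrg1 itself gave 1004, 1086 and 1003 in brown adipocytes, against 2.05, 6.22 and 5.75 in brown preadipocytes. It gave 162, 178 and 161 in white adipocytes, against 5.47, 2.16 and 2.84 in white preadipocytes. Every preadipocyte array of both lines lay below the 40th percentile, so the ratio is a bound, with Lrg1 at least 26.2-fold higher in brown adipocytes and at least 4.99-fold higher in white adipocytes than that percentile allows for the preadipocytes.

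Among the ligands, Tgfb2 moved most. Its protein is the isoform that binds Tgfbr2 weakly and relies on betaglycan. Signals of Tgfb2 were 37.2, 6.09 and 51.1 in brown adipocytes, against 734, 651 and 842 in brown preadipocytes. They were 207, 230 and 285 in white adipocytes, against 132, 111 and 138 in white preadipocytes. The groups do not overlap in either line, and the order of levels ran from brown preadipocytes through white adipocytes and white preadipocytes to brown adipocytes, with no overlap between neighbours. Tgfb2 fell by 4.14 in brown differentiation (log2, SE 0.34, adjusted p = 2.28e-06, 3 of 3 arrays below all preadipocyte arrays). In white cells its change was 0.84 (SE 0.34) with an adjusted p of 0.0530, so it did not pass. All 4 Tgfb2 probe sets fell in the brown line, with changes between -2.998 and -4.43, whereas in the white line their changes were 0.09 to 0.92 and 1 of the 4 passed (0.81, adjusted p = 0.0399). The white Tgfb2 change passed in 9 of 25 alternative settings, with adjusted p from 0.000878 to 0.225, among them without replicate 2 of brown adipocytes (0.000878) and without replicate 3 of brown adipocytes (0.0275), whose spread enters the fit.

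Tgfb3, the isoform known from palate and lung development, was lost in brown adipocytes too. Its signals were 6.91, 6.33 and 40.8 in brown adipocytes, against 150, 164 and 182 in brown preadipocytes. They were 210, 262 and 164 in white adipocytes, against 279, 295 and 214 in white preadipocytes. All 3 brown adipocyte arrays lay below the 40th percentile and apart from the other groups, of which white preadipocytes overlapped white adipocytes, and white adipocytes overlapped brown preadipocytes. Tgfb3 fell by 2.56 in the brown line (SE 0.32, adjusted p = 6.45e-05), and against the 40th percentile of each brown adipocyte array it was at least 4.21-fold lower than in brown preadipocytes. With a pseudocount of 64 the brown change of Tgfb3 was -1.51 and still called. The white change was -0.30 (SE 0.32, adjusted p = 0.457).

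Tgfb1, the most studied isoform and a product of many cell types, took the other direction. Its signals were 132, 135 and 153 in brown adipocytes, against 71.1, 90.3 and 68.8 in brown preadipocytes. They were 95.6, 94.4 and 89.2 in white adipocytes, against 106, 105 and 89.6 in white preadipocytes. The brown adipocyte arrays were the highest of all 12, and each of the other 3 groups overlapped its neighbour in the order white preadipocytes, white adipocytes, brown preadipocytes. Tgfb1 rose by 0.75 in the brown line (SE 0.10, adjusted p = 9.25e-05), and its white change was -0.09 (SE 0.10, adjusted p = 0.469). Its other probe set, which never exceeded a signal of 77.4, gave -0.16 in the brown line (adjusted p = 0.579), and with the mean of both the rise of Tgfb1 no longer passed (0.29, adjusted p = 0.0697).

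Inhba encodes the subunit that pairs with itself to form activin A, a ligand of the same Smad branch that is known to hold human adipocyte progenitors undifferentiated. Its signals were 30.1, 68.7 and 67.3 in brown adipocytes, against 88.1, 67.3 and 30.1 in brown preadipocytes. They were 114, 81.5 and 83.5 in white adipocytes, against 911, 753 and 888 in white preadipocytes. White preadipocytes thus stood apart. Brown preadipocytes overlapped both groups of adipocytes, while brown adipocytes lay below white adipocytes. Inhba fell by 3.00 in white differentiation (SE 0.31, adjusted p = 1.14e-05) and changed by -0.10 in brown differentiation (SE 0.31, adjusted p = 0.810). Averaging in its other probe set, which never exceeded 26.3 and was not tested, gave a white change for Inhba of -1.45 (adjusted p = 0.000556).

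**Figure D2:**
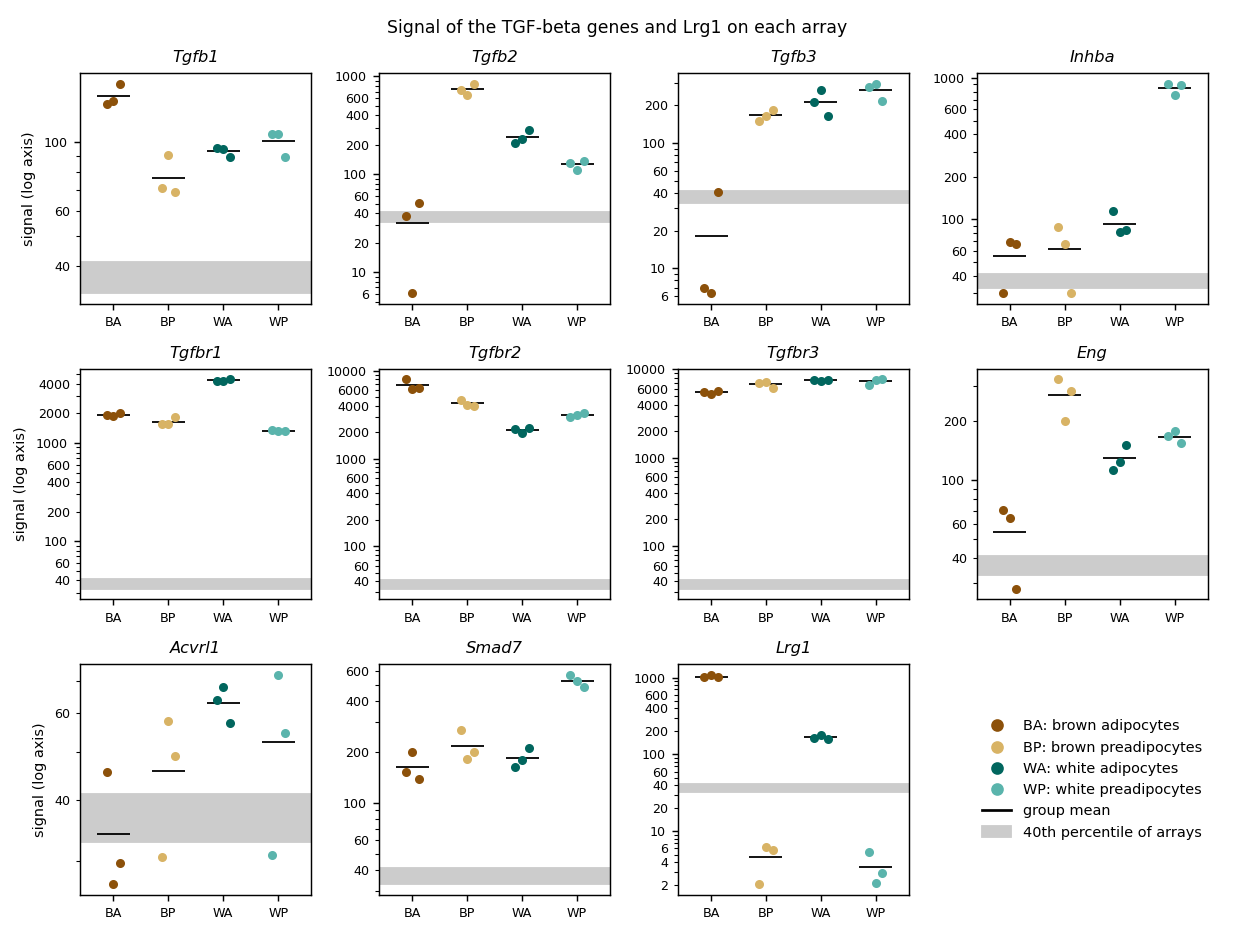
Signal on each array (vertical axis, log scale) of the 10 genes and Lrg1 in brown adipocytes (BA), brown preadipocytes (BP), white adipocytes (WA) and white preadipocytes (WP), with the group mean as a line and the range of the arrays' 40th percentiles as a grey band. Tgfb2 and Tgfb3 drop to or below the band in brown adipocytes, except for Tgfb2 in replicate 3 (51.1), which lies above it. Inhba and Smad7 stand out in white preadipocytes, and Tgfbr1 in white adipocytes.

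The signalling receptors Tgfbr1 and Tgfbr2 lay far above the 40th percentile on all 12 arrays. Tgfbr1, the type I receptor kinase, had signals of 1917, 1866 and 2036 in brown adipocytes, against 1550, 1549 and 1819 in brown preadipocytes. They were 4325, 4308 and 4455 in white adipocytes, against 1354, 1323 and 1315 in white preadipocytes. White adipocytes lay above every other array, brown adipocytes came next, and no neighbouring groups overlapped. Tgfbr1 rose by 1.70 in white differentiation (SE 0.07, adjusted p = 1.32e-08, a 3.25-fold change) and by 0.24 in brown differentiation (SE 0.07, adjusted p = 0.0145). A dimmer Tgfbr1 probe set, at most 115.0, gave 1.38 in the white line (adjusted p = 0.000144) and -0.19 in the brown line (adjusted p = 0.444). The brown rise of Tgfbr1 lost its call in 7 of 25 settings. Among these were hybridization-control scaling (0.03, adjusted p = 0.776), the mean of the probe sets (0.15, adjusted p = 0.228), and leaving out replicate 1 (adjusted p = 0.0563) or 2 (0.0564) of brown preadipocytes or replicate 3 of brown adipocytes (0.0569).

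Tgfbr2, the type II receptor that binds the ligand first, moved in opposite directions. Its signals were 8012, 6256 and 6418 in brown adipocytes, against 4635, 4094 and 4017 in brown preadipocytes. They were 2153, 1947 and 2237 in white adipocytes, against 3005, 3166 and 3292 in white preadipocytes. The order ran from brown adipocytes through brown and white preadipocytes to white adipocytes, with no overlap between neighbours. Tgfbr2 rose by 0.69 in brown differentiation (SE 0.11, adjusted p = 0.000241) and fell by 0.58 in white differentiation (SE 0.11, adjusted p = 0.000725). Its second tested probe set had signals of at most 118 and gave 0.10 in the brown line (adjusted p = 0.845) and 0.70 in the white line (adjusted p = 0.147). With the mean of its 3 probe sets Tgfbr2 gave 0.33 in brown (adjusted p = 0.217) and 0.16 in white differentiation (adjusted p = 0.560), so the white direction turned and neither passed.

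Tgfbr3, or betaglycan, presents ligands to Tgfbr2 and also binds inhibin. Its signals were 5550, 5296 and 5658 in brown adipocytes, against 7056, 7141 and 6214 in brown preadipocytes. They were 7610, 7419 and 7540 in white adipocytes, against 6730, 7545 and 7745 in white preadipocytes. Brown adipocytes lay below the other 9 arrays, and each of the other groups overlapped its neighbour in the order white adipocytes, white preadipocytes, brown preadipocytes. Tgfbr3 fell by 0.30 in the brown line (SE 0.08, adjusted p = 0.00583), a change that was -0.52 with hybridization-control scaling and -0.15 with the mean of its probe sets (adjusted p = 0.369). The second Tgfbr3 probe set, with signals of at most 80.0, gave 0.01 in the brown line (adjusted p = 0.975). Its white change was 0.04 (SE 0.08, adjusted p = 0.692) and turned to -0.24 with hybridization-control scaling (adjusted p = 0.0320).

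Eng encodes endoglin, the co-receptor through which Lrg1 is known to act in endothelial cells. Its signals were 70.3, 64.4 and 28.0 in brown adipocytes, against 326, 199 and 284 in brown preadipocytes. They were 113, 123 and 151 in white adipocytes, against 167, 179 and 155 in white preadipocytes. Neighbouring groups did not overlap, from brown preadipocytes at the top through white preadipocytes and white adipocytes to brown adipocytes. Eng fell by 2.06 in the brown line (SE 0.25, adjusted p = 4.88e-05), and its white change was -0.34 (SE 0.25, adjusted p = 0.271). Its other probe set fell in both lines, with changes of -1.99 in brown (adjusted p = 0.0001) and -1.12 in white differentiation (adjusted p = 0.00424). The Eng probe set that stands for the gene was thus lowest in brown adipocytes, the group with the highest Lrg1 signals, while the other averaged 27.3 in brown adipocytes and 22.4 in white adipocytes.

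Acvrl1 encodes ALK1, the type I receptor that pairs with endoglin in endothelial cells. Its signals were near the 40th percentile of the arrays: 45.7, 27.0 and 29.8 in brown adipocytes, against 30.6, 58.0 and 49.1 in brown preadipocytes. They were 63.9, 68.0 and 57.3 in white adipocytes, against 31.0, 71.9 and 54.6 in white preadipocytes. Each group overlapped its neighbour. The change was -0.30 in the brown line (SE 0.24, adjusted p = 0.325) and 0.25 in the white line (SE 0.24, adjusted p = 0.404). The second Acvrl1 probe set, with signals up to 76.1, fell by 1.27 in the brown line (adjusted p = 0.0145) and rose by 0.98 in the white line (adjusted p = 0.0447), so the probe sets of this gene gave different calls.

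Smad7 is both a target and an inhibitor of the pathway. Its signals were 151, 199 and 138 in brown adipocytes, against 268, 181 and 199 in brown preadipocytes. They were 162, 179 and 210 in white adipocytes, against 574, 530 and 483 in white preadipocytes. As with Inhba, white preadipocytes stood above all other arrays. For Smad7 the other 3 groups overlapped one another. Smad7 fell by 1.45 in the white line (SE 0.16, adjusted p = 2.32e-05), and a second probe set gave -1.45 (adjusted p = 0.00494). The brown change of Smad7 was -0.37 (SE 0.16, adjusted p = 0.0787). It passed in 3 of 25 settings, with hybridization-control scaling (adjusted p = 0.0151) and without replicate 2 of brown preadipocytes (0.0444) or replicate 2 of brown adipocytes (0.0249).

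**Figure D3:**
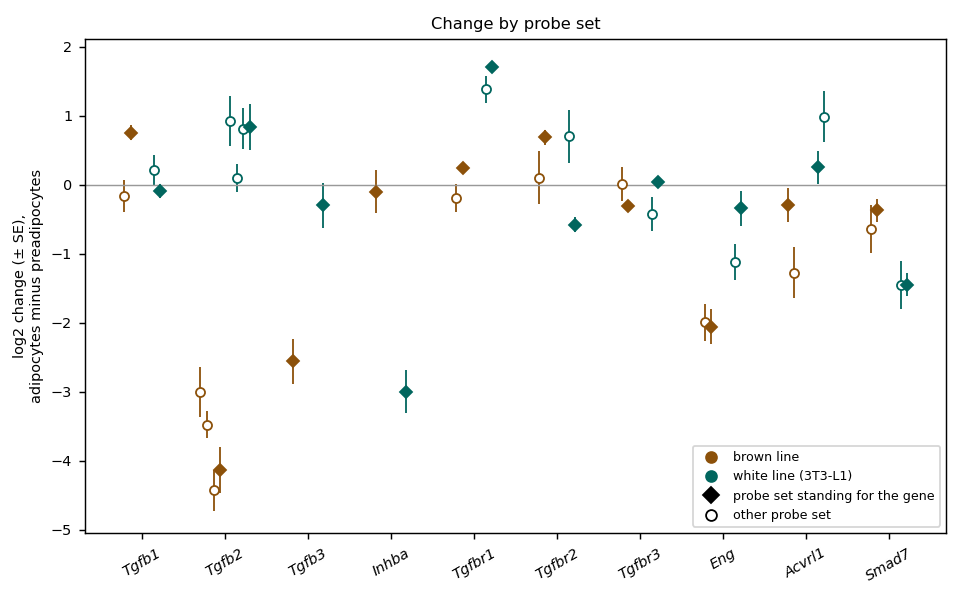
Log2 change from preadipocytes to adipocytes (vertical axis, ± SE) for each tested probe set of the 10 genes, in the brown line and the white line; diamonds mark the probe set that stands for the gene. The 4 Tgfb2 probe sets all lie below -2.9 in the brown line, while the dimmer probe sets of Tgfbr2, Eng and Acvrl1 lie away from the diamonds in the white line.

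The test of the difference between the lines' changes, brown minus white, called 4 of the 10 genes higher and 5 lower, against 50.9% of all tested genes called (23.6% higher and 27.4% lower). Tgfb2 differed most, by -4.97 (SE 0.48, adjusted p = 1.27e-05). Tgfb3 (-2.26), Eng (-1.72), Tgfbr1 (-1.46) and Tgfbr3 (-0.34) were the others whose change was lower in the brown line, with adjusted p from 1.41e-06 to 0.0223. Inhba (2.90), Tgfbr2 (1.27), Smad7 (1.08) and Tgfb1 (0.84) had a change that was higher in the brown line, with adjusted p from 5.52e-05 to 0.00308. Acvrl1 differed by -0.55 (SE 0.34, adjusted p = 0.217). The Tgfbr3 difference rested on single arrays: the adjusted p was 0.0527 without replicate 1 of brown preadipocytes, 0.0529 without replicate 2 of brown preadipocytes and 0.0521 without replicate 2 of brown adipocytes. The second probe sets of Eng (-0.88, adjusted p = 0.0822) and Smad7 (0.81, adjusted p = 0.218) did not pass, while that of Acvrl1 did (-2.26, adjusted p = 0.00544), and with the mean of the probe sets neither Tgfb1 (0.24, adjusted p = 0.311) nor Tgfbr2 (0.17, adjusted p = 0.678) passed. With that mean the Tgfbr3 difference also turned, to 0.044 (adjusted p = 0.869). The dimmer probe sets gave -0.37 for Tgfb1 (adjusted p = 0.385), -0.60 for Tgfbr2 (adjusted p = 0.407) and 0.43 for Tgfbr3 (adjusted p = 0.356), each opposite in sign to the value reported for the gene and none of the 3 called.

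Brown adipocytes had more Tgfbr2 and Tgfb1 RNA and less Tgfb2, Tgfb3, Tgfbr1, Eng, Acvrl1 and Tgfbr3 than white adipocytes. This comparison called 2 of the 10 genes higher and 6 lower, with Inhba and Smad7 not passing, against 59.5% of all tested genes called (30% higher and 29.5% lower). The brown minus white difference was 1.69 for Tgfbr2 (SE 0.11, adjusted p = 2.98e-07) and -1.16 for Tgfbr1 (SE 0.07, adjusted p = 2.96e-07), so the pair of signalling receptors leaned in opposite directions. It was -2.87 for Tgfb3 (SE 0.32, adjusted p = 2.6e-05), a signal at least 5.32-fold lower in brown adipocytes, and -2.57 for Tgfb2 (SE 0.34, adjusted p = 7.6e-05). With a pseudocount of 64 these 2 ligand differences were -1.76 and -1.70, and both were called. Eng differed by -1.10 (SE 0.25, adjusted p = 0.00338), but by 0.18 on its second probe set (adjusted p = 0.585) and by -0.46 with the mean of both (adjusted p = 0.0278). Tgfb1 differed by 0.51 (SE 0.10, adjusted p = 0.00126) and Tgfbr3 by -0.45 (SE 0.08, adjusted p = 0.000449), and with the mean of the probe sets neither passed (0.03 for Tgfb1, adjusted p = 0.850, and -0.24 for Tgfbr3, adjusted p = 0.143). Acvrl1 differed by -0.67 (SE 0.24, adjusted p = 0.0351), a call lost in 8 of 24 settings. Among these, the adjusted p of Acvrl1 was 0.0774, 0.0903 and 0.0547 without replicates 1, 2 and 3 of white adipocytes, and 0.110 and 0.0948 without replicates 2 and 3 of brown adipocytes. The dimmer probe sets gave -0.45 for Tgfb1 (adjusted p = 0.120), 0.67 for Tgfbr2 (adjusted p = 0.166) and -0.03 for Tgfbr3 (adjusted p = 0.939). The Inhba difference was -0.65 (SE 0.31, adjusted p = 0.0978) and passed in 3 of 25 settings, among them without replicate 3 of brown preadipocytes (0.0392). The Smad7 difference was -0.17 (SE 0.16, adjusted p = 0.421).

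**Figure D4:**
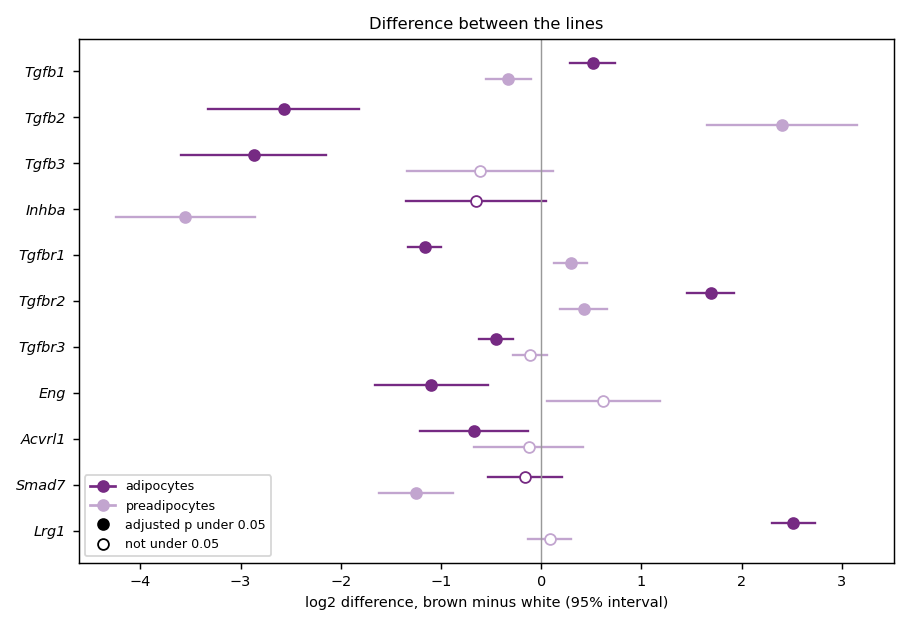
Log2 difference, brown minus white (horizontal axis, 95% interval), of the 10 genes and Lrg1 between adipocytes and between preadipocytes, 3 arrays a group; filled points have an adjusted p under 0.05. Tgfb2, Tgfbr1 and Tgfb1 change sides between the stages, at -2.57, -1.16 and 0.51 in adipocytes and 2.40, 0.29 and -0.33 in preadipocytes.

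Before induction the lines already differed. Brown preadipocytes had more Tgfb2, Tgfbr2 and Tgfbr1 RNA and less Inhba, Smad7 and Tgfb1 than white preadipocytes, 3 genes higher and 3 lower with 4 not passing, against 54.9% of all tested genes called (31.1% higher and 23.8% lower). The brown minus white difference was 2.40 for Tgfb2 (SE 0.34, adjusted p = 0.000157), -3.55 for Inhba (SE 0.31, adjusted p = 5.47e-06) and -1.25 for Smad7 (SE 0.16, adjusted p = 0.000106). It was 0.43 for Tgfbr2 (SE 0.11, adjusted p = 0.00593) and 0.29 for Tgfbr1 (SE 0.07, adjusted p = 0.0058). Scaling the arrays to equal medians moved the median of all genes to -0.18 in this comparison, and then neither Tgfbr2 (0.15, adjusted p = 0.324) nor Tgfbr1 (0.02, adjusted p = 0.893) passed. Tgfb1 differed by -0.33 (SE 0.10, adjusted p = 0.0174), was -0.57 with equal medians, and lost its call in 9 of 24 settings. Among these, the adjusted p of Tgfb1 was 0.0592 and 0.0579 without replicates 1 and 2 of white preadipocytes, and 0.0624 and 0.0631 without replicates 1 and 3 of brown preadipocytes. The dimmer probe sets gave -0.08 for Tgfb1 (adjusted p = 0.807) and 0.47 for Tgfbr1 (adjusted p = 0.0714). Eng differed by 0.62 (SE 0.25, adjusted p = 0.0599), passing in 8 of 24 settings, and by 1.06 on its second probe set (adjusted p = 0.00686). Without replicate 2 of brown preadipocytes the adjusted p of Eng was 0.0273, and without replicate 3 of brown adipocytes 0.0113. Tgfb3 differed by -0.61 (SE 0.32, adjusted p = 0.141), passing in 5 of 25 settings, among them without replicate 3 of brown adipocytes (0.0128). Tgfbr3 (-0.11, adjusted p = 0.256) and Acvrl1 (-0.13, adjusted p = 0.697) did not pass, although with equal medians Tgfbr3 did (-0.39, adjusted p = 0.00318).

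The other genes of the pathway were taken from 8 lists, of which 61 different genes were tested. Brown differentiation called 13 of the 61 higher and 35 lower, 78.7% against 58.6% of all tested genes, with a median change of -0.58. White differentiation called 15 higher and 21 lower, 59% against 61.2% of all tested genes, with a median change of -0.03, so the white share was near that of all genes. The counts of single lists below are read against the same shares, 27.2% of all genes higher and 31.5% lower in the brown line and 30% higher and 31.2% lower in the white line. The actin ratio given above moves with these groups, as do the preadipocyte markers, of which 5 of 5 fell in the brown line (median -3.70) and 3 of 5 in the white line (median -1.08). Their part was not tested.

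Of 6 other ligands of the branch, 3 rose and 1 fell in brown differentiation, and 2 rose in white differentiation. Inhbb, the subunit of activin B, rose in both lines, by 1.62 in the brown line (SE 0.11, adjusted p = 4.39e-07) and by 2.68 in the white line (SE 0.11, adjusted p = 7.46e-09). Inhbb signals were 340, 371 and 328 in brown adipocytes, against 86.2, 108 and 113 in brown preadipocytes, and 2468, 2676 and 2357 in white adipocytes, against 400, 338 and 394 in white preadipocytes. The 2 activin subunits therefore took different courses in the white line, Inhba falling and Inhbb rising.

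Of 7 other receptors, 2 rose and 2 fell in the brown line, and 3 rose and 1 fell in the white line. Acvr1c, the type I receptor ALK7 known from adipose tissue, was 3283, 3415 and 3557 in brown adipocytes, against 138, 97.2 and 98.6 in brown preadipocytes. It was 3.85, 12.9 and 8.58 in white adipocytes, against 7.77, 2.37 and 2.96 in white preadipocytes. Acvr1c rose by 4.77 in the brown line (SE 0.16, adjusted p = 4.97e-09), and the difference between the lines' changes was called higher (adjusted p = 1.69e-07). Both white groups lay below the 40th percentile, so Acvr1c was at least 91.2-fold higher in brown adipocytes than in white adipocytes. The activin type I receptor Acvr1b showed the converse, with a rise of 1.51 in the white line (adjusted p = 2.14e-08) and a change of -0.03 in the brown line (adjusted p = 0.716), a difference of -1.54 (adjusted p = 6.64e-07). Acvr1, a type I receptor of the BMP branch, fell in both lines, with changes of -1.36 in brown and -0.77 in white differentiation.

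Of 7 Smads and adaptors, 1 rose and 3 fell in the brown line and 3 fell in the white line. Smad3, a transducer of TGF-beta and activin signals, changed by -1.38 in the brown line (adjusted p = 4.33e-07) and by -0.37 in the white line (adjusted p = 0.00417), both falls. Smad1, of the BMP and ALK1 branch, fell in both lines, with changes of -0.71 in the brown and -1.03 in the white line. Of 11 intracellular negative regulators beside Smad7, 5 rose and 6 fell in the brown line, and 4 rose and 4 fell in the white line. The repressor Tgif2 fell in both lines, with changes of -2.14 in brown and -1.71 in white differentiation, and the phosphatase Ppm1a rose in both, by 1.05 in the brown and by 1.06 in the white line.

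Of 9 genes for latency, storage and activation, 2 rose and 5 fell in the brown line, and 1 rose and 3 fell in the white line. Ltbp1, which tethers latent TGF-beta to the matrix, fell in both lines, with changes of -3.50 in brown and -2.59 in white differentiation. Thbs1, an activator of latent TGF-beta, fell in both too, with changes of -2.16 in the brown and -2.39 in the white line. Emilin1, which restrains the processing of the TGF-beta precursor, fell by 3.70 in the brown line (adjusted p = 1.32e-09) and changed by -0.15 in the white line (adjusted p = 0.237). Of 7 extracellular and membrane antagonists, 5 fell and none of the 7 rose in the brown line, and 3 rose and 2 fell in the white line. Decorin (Dcn), a proteoglycan that binds TGF-beta, gave 4.27, 4.45 and 7.68 in brown adipocytes, against 29.2, 62.7 and 58.6 in brown preadipocytes. Dcn gave 7410, 6008 and 5805 in white adipocytes, against 600, 847 and 685 in white preadipocytes. Dcn rose by 3.15 in the white line (adjusted p = 3.77e-07) and was called lower in the brown line (adjusted p = 8.64e-05). All brown adipocyte arrays lay below the 40th percentile, so Dcn was at least 1.21-fold lower there than in brown preadipocytes and at least 163-fold lower than in white adipocytes.

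Of 10 genes that TGF-beta is known to induce, all 10 fell in the brown line, with a median of -3.17 beside -0.03 over all genes, and in the white line 5 fell and 2 rose, with a median of -0.92 beside 0.02. In the brown line the largest falls were those of Postn (-6.10), Col1a1 (-5.22) and Ccn1 (-4.70), genes of matrix and matricellular proteins. In the white line Tagln (-3.85), Timp1 (-3.78) and Acta2 (-3.27) fell most, of which Tagln and Acta2 encode proteins of the contractile cytoskeleton. Postn rose by 1.78 in the white line (adjusted p = 1.31e-06), and the difference between the lines' changes was -7.88 (SE 0.20, adjusted p = 2.88e-09). Col1a1 changed by 0.05 in the white line (adjusted p = 0.778), a difference of -5.26 (adjusted p = 1.79e-08). Of 5 genes that the endoglin and ALK1 branch is known to induce, 4 fell in each line. Id2, an inhibitor of basic helix-loop-helix factors, changed by -0.37 in the brown line and by -5.86 in the white line (adjusted p = 0.0112 and 5.24e-11), a difference of 5.49 (SE 0.15, adjusted p = 3.26e-09), while Id3 changed by -3.04 in the brown and by -3.50 in the white line. Many other signals control these genes, and the counts do not measure signalling through any receptor.

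**Figure D5:**
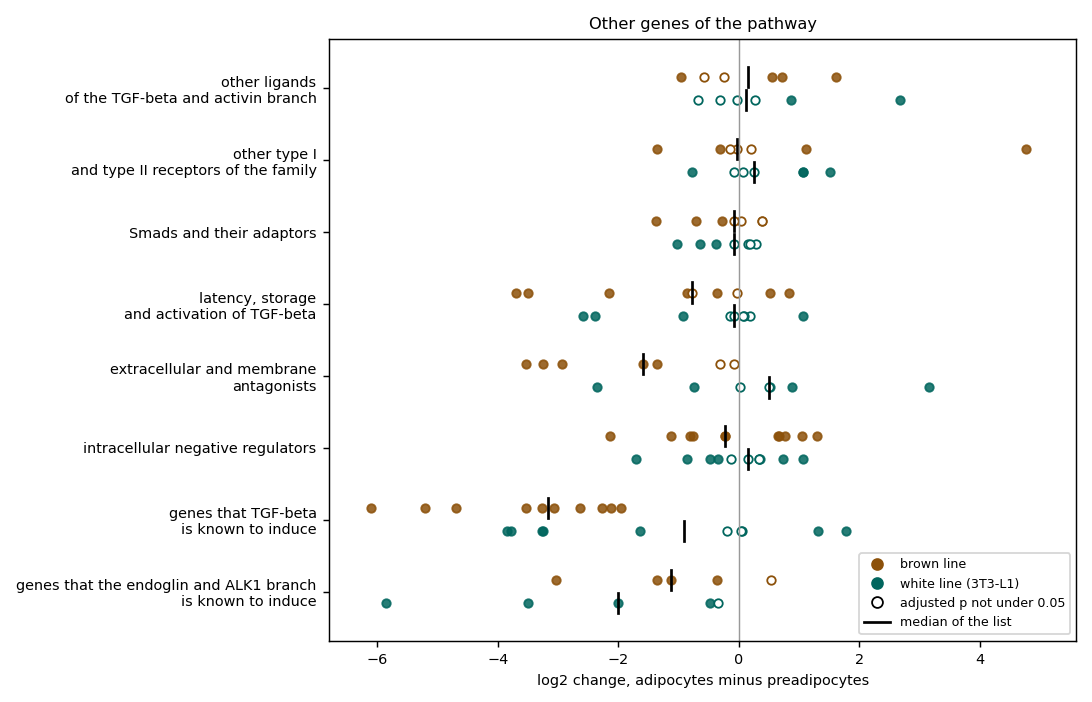
Log2 change from preadipocytes to adipocytes (horizontal axis) of each tested gene in 8 lists of other pathway genes, in the brown line and the white line; filled points have an adjusted p under 0.05 and black bars mark the median of a list. All 10 genes that TGF-beta is known to induce lie left of 0 in the brown line, with a median of -3.17, and spread from -3.85 to 1.78 in the white line.

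Over the 12 arrays, which fall into 4 groups so that the correlations mostly describe group means, Inhba and Smad7 were the most alike pair among the 10 genes (Pearson r = 0.926), and Tgfb1 and Eng the most opposed (r = -0.929). Tgfb3 and Tgfbr3 correlated at 0.878 and Tgfb2 and Eng at 0.818. Among all tested genes, the closest in pattern were Pet100 for Tgfbr1 (r = 0.994), Rpl10a for Tgfbr3 (r = 0.992), Sfmbt2 for Tgfb3 (r = 0.982), Suz12 for Tgfbr2 (r = 0.980), Rin1 for Smad7 (r = 0.978) and Galnt1 for Inhba (r = 0.978). Those of the other genes were Rgs16 for Eng (r = 0.967), Hsdl1 for Tgfb1 (r = 0.964), Rabl3 for Tgfb2 (r = 0.963) and Nfkbia for Acvrl1 (r = 0.853).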

How the data were processed

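Total RNA of 12 cell samples (4 groups of 3) was amplified to biotin-labelled cRNA for 3' expression arrays, per the labels' protocols. The deposited values are linear signal intensities per probe set, which the authors made, per the submitters' processing notes, in Affymetrix Expression Console; no source used here names its version or summary method. In these values, the 2% trimmed mean of each array is 500, so total RNA per cell cannot be read. The number of arrays limits the precision.

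Of 45101 probe sets, 34958 had 1 gene symbol and 932 several in GEO's platform annotation; the rest had none there. The probe set with the highest mean log2(signal + 16) stood for each gene. The filter (above the array's 40th percentile on at least 3 arrays) left 13746 of 18194 genes. Group means were fitted with limma 3.58.1 (lmFit, eBayes; 8 residual and 1.81 prior degrees of freedom; R 4.3.3) over all 12 arrays, with 5 contrasts, two-sided, Benjamini-Hochberg adjusted over all tested genes. In data simulated for brown differentiation on 13746 genes, the fit recovered 34 of 67 genes changed by 0.5, 50 of 67 by 1 and 57 of 66 by 2 (log2). Only these genes were changed there, whereas 58.6% of all tested genes were called in the measured brown differentiation. The shares recovered therefore do not give the sensitivity in the measured data.

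The 10 genes and the lists of other pathway genes and markers were chosen with earlier results of these data known. The rule for naming was every one of the 10 genes and Lrg1, up to 3 called genes of a list with the largest change, and the genes of closest pattern; a list gene named for 1 line is given in both. Other probe sets of a gene are given mainly where they differ from a called value in direction or call. Positions and promoters come from RefSeq on GRCm38.p6. List entries without a probe set of 1 symbol are not analysed here. In all, 25 alternative settings were run: pseudocounts of 1 and 64, 3 other scalings, 2 other filters, the mean of a gene's probe sets, s, x and a probe sets left out, an intensity trend, a replicate block, a stricter threshold, only the arrays compared, and each array left out in turn.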

Additional observations from a re-analysis of the deposited data

Results flagged for a closer look

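The change with differentiation differed between the brown and the white line, by the test of the difference itself, in 9 of the 10 genes and in Lrg1. Brown minus white, the difference in log2 change was -4.97 for Tgfb2, -2.26 for Tgfb3, -1.72 for Eng, -1.46 for Tgfbr1 and -0.34 for Tgfbr3. It was 2.90 for Inhba, 1.27 for Tgfbr2, 1.08 for Smad7, 0.84 for Tgfb1 and 2.43 for Lrg1. The Lrg1 value is no exact size, since every preadipocyte array of both lines lay below the 40th percentile for it. The same test called 50.9% of all tested genes. The lines also differed in induction mix, day of harvest and the name given for the serum. The part of these cannot be told apart from that of the line.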

How the results depend on the processing

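Over the 10 genes and Lrg1, 1349 pairs of a gene's change and an alternative setting were computed, of which 1260 kept direction and side of the threshold, 40 lost the call and 35 gained it. In 14 the sign changed, 11 of them for values that were called in neither setting. The other 3 were the Tgfbr3 white change with hybridization-control scaling (-0.24), the Tgfbr2 white change with the mean of probe sets (0.16) and the Tgfbr3 difference between the lines with the mean of probe sets (0.044). With that mean, 4 of the 10 genes were called in brown differentiation, beside 7348 of all 13125 genes tested in that way. Averaging takes in probe sets that are mostly below or near the 40th percentile. Leaving out 1 array gave 4 to 5 called genes of the 10 in white differentiation and 6 to 8 in brown differentiation. It gave 8 to 9 for the difference between the lines, 7 to 9 between adipocytes and 5 to 8 between preadipocytes. Of all 13746 tested genes, these fits called 7963 to 8499 in white differentiation and 7454 to 8042 in brown differentiation. They called 6560 to 6894 for the difference between the lines, 7659 to 8230 between adipocytes and 6908 to 7528 between preadipocytes. The falls of Tgfb2, Tgfb3 and Eng in the brown line, and of Inhba and Smad7 and the rise of Tgfbr1 in the white line, were called in every setting that tested the gene. Eng had no value with s, x and a probe sets left out.

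The values showed no pairing by replicate number: in 12 pairs of same-numbered arrays the deviations correlated at -0.03 to 0.03, and 3 of 12 arrays correlated best with their own number. This cannot show whether same-numbered arrays shared a culture or a run, which no label states. With a replicate block 5, 7, 9, 8 and 6 of the genes were called in the white change, the brown change, their difference, adipocytes and preadipocytes, in that order. Of all 13746 tested genes that fit called 8331, 7955, 6863, 8105 and 7414, in the same order. Hybridization-control scaling changed the split of all called genes to 2931 higher and 5642 lower in white differentiation (4130 and 4283 as reported), to 2628 and 5618 in brown differentiation (3734 and 4328), and to 4880 and 3171 between adipocytes (4125 and 4052). Equal medians gave 2704 higher and 4949 lower between preadipocytes (4277 and 3270 as reported). Signals near the 40th percentile, as for Acvrl1 and for Tgfb2, Tgfb3 and Eng in brown adipocytes, limit how well the size of a change is known: with pseudocounts of 1 and 64 the brown change was -4.93 and -3.10 for Tgfb2, -3.63 and -1.51 for Tgfb3, and -2.37 and -1.50 for Eng.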
